A study of Mus musculus with 4 samples.

Results

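Adrenomedullin, its receptor and the receptor's partner proteins were examined as 5 genes, Adm, Calcrl, Ramp1, Ramp2 and Ramp3, of 23235 in each of the 2 deposited expression tables. They were chosen by symbol, around the high Ramp3 level of one stroma library, so the stroma values of Ramp3 described here are those that prompted the choice. The samples were 4 mouse uterine libraries, taken on day 4 after mating with vasectomized males, which makes females pseudopregnant. Luminal epithelium, the cell layer lining the uterine cavity, was represented by 1 library labelled Msx1 d/d, Msx2 d/d (knockout) and 1 labelled Msx1 f/f, Msx2 f/f (control). Stroma, the connective tissue beneath it, was represented by 1 library of each genotype in the same way. Msx1 and Msx2 are homeobox transcription factors, and the series describes their deletion as restricted to the uterus of 1 knockout mouse, set against 1 floxed mouse. The Cre driver, the age and the background strain are not given in the sources used here. Cells were captured by laser from tissue sections, so each library holds whatever cells lay under the beam. With 1 library in each group there was no replicate and no test, and higher and lower describe these libraries only. Genotype, animal and library cannot be told apart.

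Adrenomedullin is a secreted peptide, made from the Adm precursor, that widens blood vessels. In mice it is needed for growth of blood and lymphatic vessels. Its receptor is the product of Calcrl, a G protein-coupled receptor that works only together with one of the single-pass membrane proteins encoded by Ramp1, Ramp2 and Ramp3. Calcrl with Ramp1 forms the receptor for calcitonin gene-related peptide, whereas Calcrl with Ramp2 or Ramp3 forms receptors for adrenomedullin. Signals pass mainly through the stimulatory G protein and cyclic AMP. In mouse pregnancy, lower maternal Adm is known to impair fertility, and Ramp2 and Calcrl are known as genes of vascular endothelium.

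Promoter sequence is shown for Ramp3 and Adm, whose stroma levels were 9.25-fold and 2.27-fold higher in the library labelled knockout. Each run is the 250 bases before the gene start in RefSeq, build GRCm38.p6, written 5′ to 3′ on the gene's own strand, with matches to GGGCGG or its reverse complement, the GC box, in capitals. Ramp3 lies at chr11:6658283-6658532 (plus strand) and Adm at chr7:110627407-110627656 (plus strand).
Ramp3: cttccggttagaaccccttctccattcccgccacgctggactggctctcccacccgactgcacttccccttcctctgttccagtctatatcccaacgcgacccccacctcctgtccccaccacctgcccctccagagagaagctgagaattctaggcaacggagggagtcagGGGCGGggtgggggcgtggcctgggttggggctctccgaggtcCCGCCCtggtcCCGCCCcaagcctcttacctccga
Adm: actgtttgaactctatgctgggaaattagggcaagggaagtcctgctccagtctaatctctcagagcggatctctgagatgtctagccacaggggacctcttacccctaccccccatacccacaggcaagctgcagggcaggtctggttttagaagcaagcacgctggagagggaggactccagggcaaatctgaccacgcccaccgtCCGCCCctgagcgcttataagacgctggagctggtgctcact
GC boxes numbered 3 before Ramp3, 1 before Adm, 1 before Calcrl and 0 before Ramp1, on either strand. Of 32851 RefSeq promoter windows of the same length, 32.7% held at least 1. The base content was 65.2% G and C for Ramp3 and 56.8% for Adm, against a median of 52.4% over all windows. Entries existed for 4 of the 5 members, and Ramp2 was not among them. Neither Ramp3 nor Adm held TAATTG, a core bound by homeobox proteins, which 7.17% of windows held on either strand, or ACGTG, the core of the hypoxia response element, which 16.6% held. Both also lacked TGACG, part of the cyclic AMP response element, held by 17.8%, and AGAACA, part of the progesterone and glucocorticoid response element, held by 16.1%. Calcrl and Ramp1 held none of these sequences either. GGTCA, part of estrogen and other nuclear receptor sites, was found before Adm and not before Ramp3, and 35.2% of windows held it. It was also found before Ramp1 and not before Calcrl. TATAA was found before Adm in 2 overlapping matches, 1 on each strand, and not before Ramp3, against 22.8% of windows. These matches describe letters in a window and are not sites shown to be used.

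The depth behind the values was estimated at about 90600000 reads for luminal epithelium labelled knockout, 6360000 for luminal epithelium control, 62400000 for stroma labelled knockout and 43100000 for stroma control. The luminal epithelium pair thus differed 14.2-fold in depth and the stroma pair 1.45-fold. Levels are in RPKM, reads scaled by transcript length and by the number of mapped reads. In luminal epithelium Msx1 was at 13.6 RPKM in the library labelled knockout and 23.2 RPKM in control, lower but not lost, and the deleted exons are not given in the sources used here. Msx2 there went against the label, at 2.06 RPKM in the library labelled knockout and 1.31 RPKM in control, so the libraries are called labelled knockout throughout. In stroma Msx1 was at 0.0207 RPKM in the library labelled knockout and 0.0467 RPKM in control, and Msx2 at 0.0564 and 0.135 RPKM. The authors' deposited table did not test either gene in stroma. At such low levels these genes could not check the label of the stroma pair. Epithelial markers were concentrated in the luminal epithelium libraries, with 9 markers summing to 487 and 429 RPKM in labelled knockout and control, against 0.541 and 1.76 RPKM in stroma labelled knockout and stroma control. A value of 0 does not show absence here, since even Rpl26, which encodes a protein of the ribosome, was listed at 0 in both controls.

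**Figure D1:**
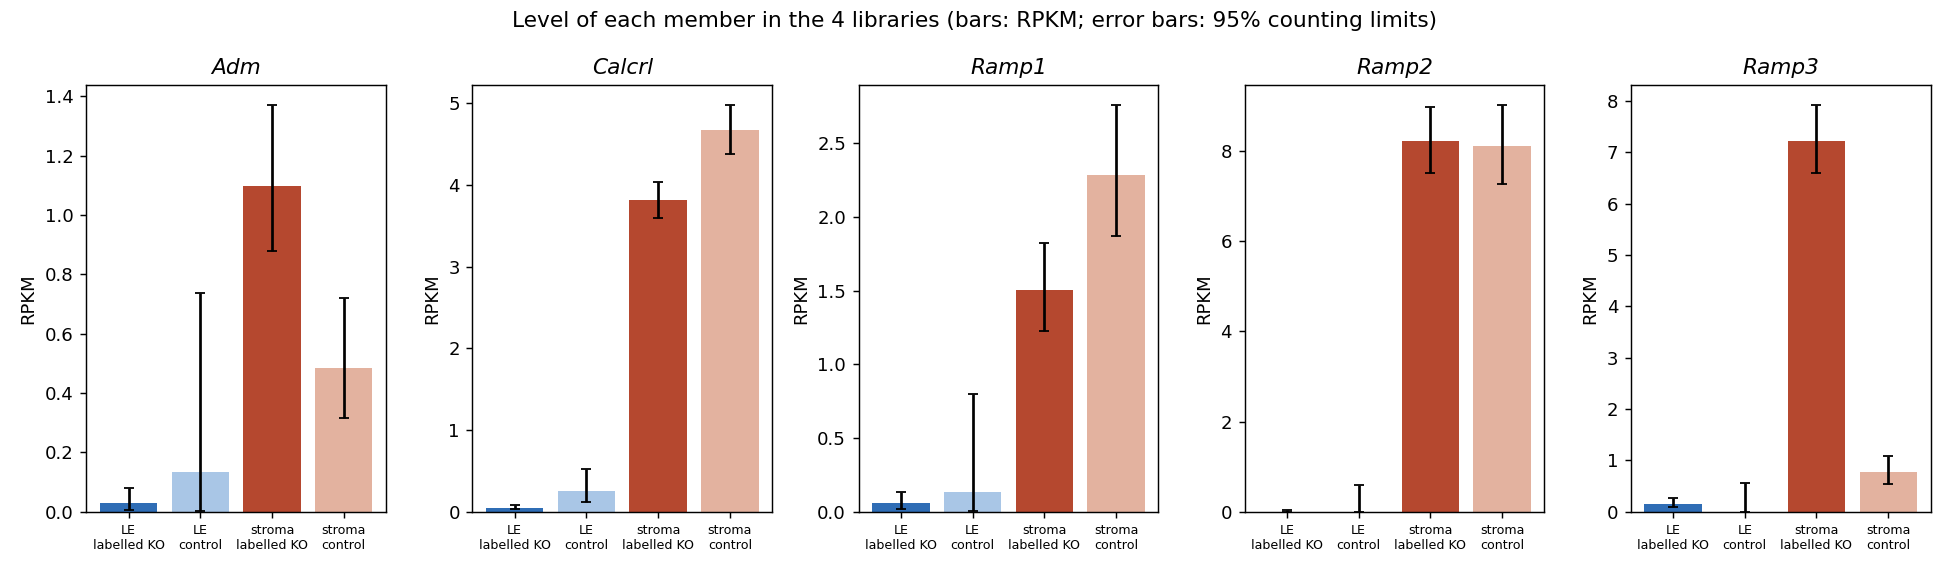
RPKM of each member (one panel per gene, own vertical scale) in luminal epithelium (LE) labelled knockout, LE control, stroma labelled knockout and stroma control; error bars are 95% counting limits from estimated reads and not variation between animals. Ramp3 reached 7.23 RPKM in stroma labelled knockout and 0.781 RPKM in stroma control, while Ramp2 lay at 8.23 and 8.10 RPKM in the same pair.

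The first comparison set stroma labelled knockout against stroma control. Ramp3, a partner that turns the Calcrl product into an adrenomedullin receptor, was 9.25-fold higher in the library labelled knockout, whereas Ramp2, the other adrenomedullin partner, was at nearly equal levels. Adm, the ligand gene, was low in both and 2.27-fold higher in the library labelled knockout. Ramp1 and Calcrl were lower there by smaller factors. Of the 5 members 4 reached a mean of 1 RPKM over the pair, and 1 of these 4 was at least 2-fold apart, on the log2 scale with 1 RPKM added. Among all 7723 genes kept by the same minimum, 3.04% were at least 2-fold apart in either direction, 1.45% higher and 1.59% lower. These include small RNA and unnamed models, and of the 7038 named genes kept 33 were higher and 37 lower. Since Ramp3 in this very pair prompted the choice of genes, nothing is read from the count of members.

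Ramp3 (chromosome 11, 6550151 to 6577478, mm9) stood at 7.23 RPKM in stroma labelled knockout, about 466 reads, and at 0.781 RPKM in stroma control, about 35 reads. Its ratio of 9.25 had 95% counting limits of 6.52 and 13.4, and its log2 difference was 2.21 with limits of 1.95 and 2.43. Among the 7038 named genes kept in stroma, whose log2 differences ran between -0.32 and 0.40 from the 5% to the 95% point, it ranked 1 from the top. That rank depends on a choice made after the values were seen. A short unnamed RNA model, at 68.5 RPKM in labelled knockout and listed at 0 in control, was then added to the models set aside as unnamed, and with it counted Ramp3 ranked 2 of 7039. The next were Gas6, which encodes a ligand of TAM receptor kinases, at 16.7 RPKM in labelled knockout and 3.12 RPKM in control, and the collagen gene Col6a4, at 43.7 and 9.62 RPKM. Both were named after their values were seen. The authors' deposited table gave Ramp3 a log2 fold change of 3.21, a p-value of 0.00702 and a q-value of 0.0929, and did not mark it significant. The locus given for Ramp3 is shared in the tables with Gm11978, which the GENCODE vM21 annotation places on the opposite strand, overlapping Ramp3. Gm11978 was listed at 0.0938 RPKM in stroma labelled knockout and at 0 in stroma control. The use of strand in counting is not given in the sources used here, so reads of the overlapping stretch cannot be told apart.

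**Figure D2:**
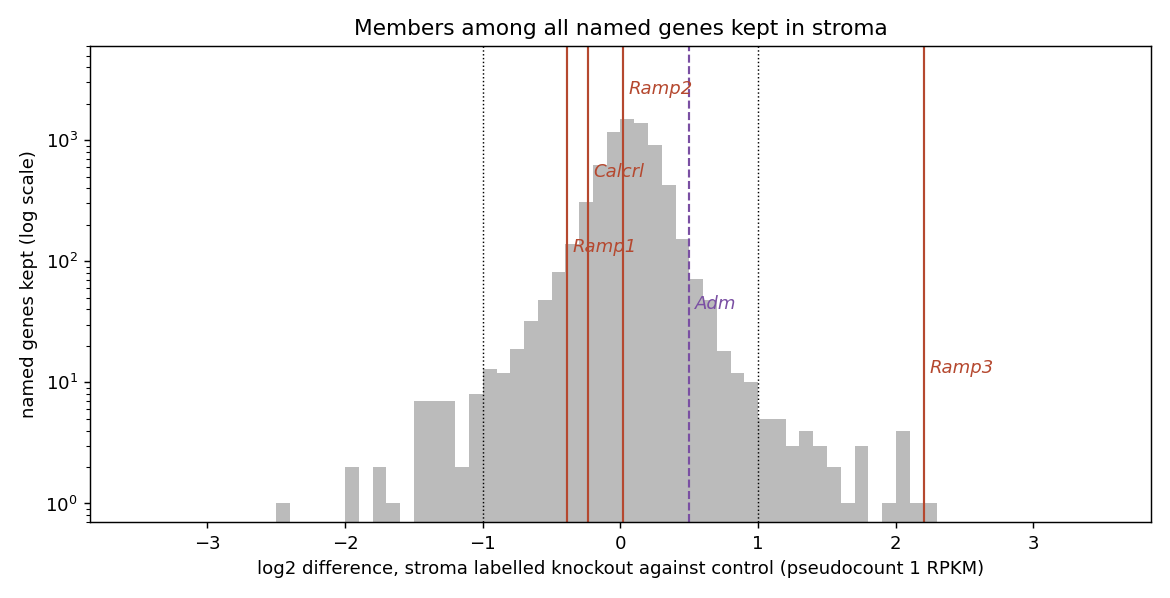
Histogram of the log2 difference, stroma labelled knockout against stroma control, for the 7038 named genes kept (number of genes on a log scale), with the members as vertical lines. Ramp3 lies at 2.21, past the dotted 2-fold line, while Calcrl, Ramp1 and Ramp2 lie within it; Adm, drawn dashed at 0.50, had a mean under 1 RPKM and is not in the histogram.

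Ramp2 (chromosome 11, 101107648 to 101109564) was the most abundant member of stroma, at 8.23 RPKM in the library labelled knockout and 8.10 RPKM in control. The ratio was 1.02, with counting limits of 0.882 and 1.17. The sign of its log2 difference, 0.02, turned to -0.06 when the libraries were rescaled by their upper quartile. Calcrl (chromosome 2, 84170783 to 84265423), the receptor itself, was at 3.81 RPKM in labelled knockout and 4.66 RPKM in control, which gave a ratio of 0.817 (limits 0.748 and 0.891). Ramp1 (chromosome 1, 93076399 to 93121773), the partner that gives the receptor for calcitonin gene-related peptide, was at 1.51 RPKM in labelled knockout and 2.28 RPKM in control. The Ramp1 ratio was 0.659, with limits of 0.498 and 0.871. Such limits cover counting error only, and they left out equal levels for 45.1% of the 7001 named genes kept in stroma that had a length, so leaving out equal levels did not single a gene out. In the order of levels per length, stroma labelled knockout ran Ramp2, Ramp3, Calcrl, Ramp1, Adm, and stroma control ran Ramp2, Calcrl, Ramp1, Ramp3, Adm. Counting limits of neighbours in that order overlapped between Ramp2 and Ramp3 and between Ramp1 and Adm in labelled knockout, and between Ramp3 and Adm in control.

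Because shares within a library do not move with its scaling, the make-up of the Ramp family was also described. Summed over the Ramp genes, the level was 17.0 RPKM in stroma labelled knockout and 11.2 RPKM in stroma control. Ramp3 made up 42.6% of that sum in labelled knockout and 6.99% in control. Ramp2 made up 48.5% in labelled knockout and 72.5% in control, and Ramp1 8.87% in labelled knockout and 20.5% in control. By estimated reads, the share of Ramp3 was 43.5% in labelled knockout, with Clopper-Pearson limits of 40.5% and 46.5%, and 7.22% in control, with limits of 5.08% and 9.89%. Per RPKM of Ramp2, Ramp3 stood at 0.878 in labelled knockout (limits 0.773 and 0.999) and at 0.0964 in control (limits 0.0664 and 0.137). Per RPKM of Calcrl, the summed Ramp level was 4.45 in labelled knockout and 2.39 in control. Thus the Ramp sum exceeded the receptor gene in both stroma libraries, and Ramp3 alone exceeded Calcrl 1.90-fold in labelled knockout but reached 0.167 of it in control.

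**Figure D3:**
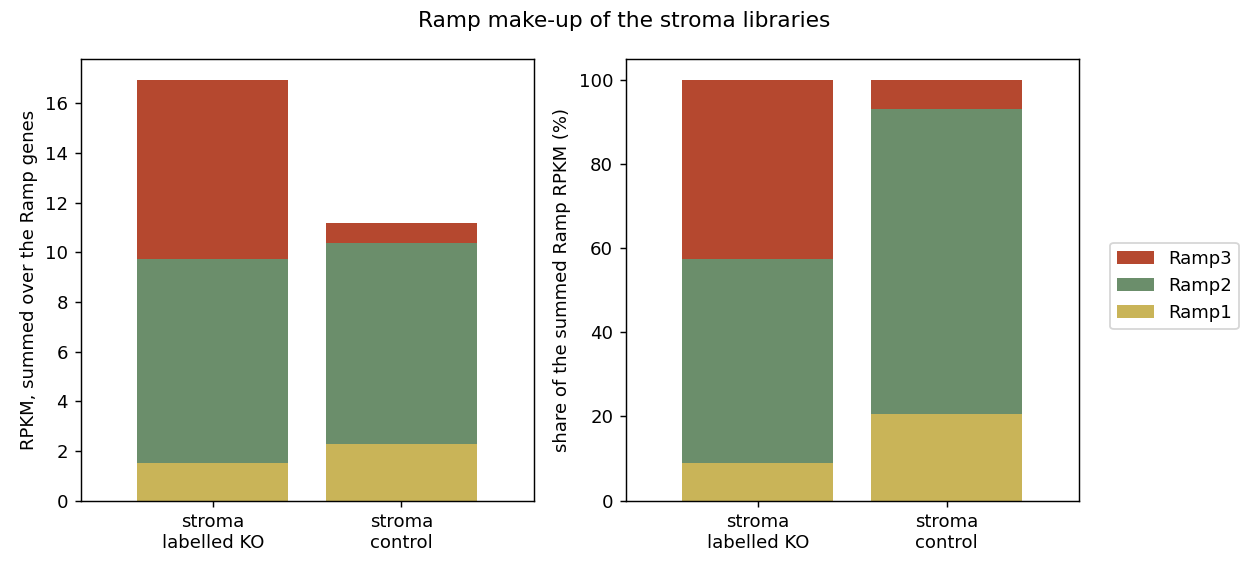
Stacked bars of Ramp1, Ramp2 and Ramp3 in stroma labelled knockout and stroma control, as RPKM (left) and as a share of the summed Ramp RPKM in percent (right). Ramp3 fills 42.6% of the bar in labelled knockout and 6.99% in control.

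Adm (chromosome 7, 117771183 to 117773333) was at 1.10 RPKM in stroma labelled knockout, about 82 reads, and 0.485 RPKM in stroma control, about 25 reads. The ratio of 2.27 had counting limits of 1.43 and 3.70. With 1 RPKM added the log2 difference was 0.50, and with 0.1 RPKM added it was 1.04, since the pseudocount compresses genes at this level. The authors' deposited table gave Adm in stroma a q-value of 1.0 after rounding. Other genes that make or handle these peptides were read from a list of 12, all in the tables. The related ligand genes Adm2, Calcb and Iapp were listed at 0 in all 4 libraries. Calca, which encodes calcitonin and calcitonin gene-related peptide, was at 0.129 RPKM in stroma labelled knockout and 0.327 RPKM in stroma control, about 6 and 10 reads, and was listed at 0 in both luminal epithelium libraries. In stroma 5 of the 12 were kept, none was at least 2-fold apart, and their median log2 difference was -0.08, against 0.07 over all kept genes. Pam, which adds the terminal amide that adrenomedullin needs for activity, was at 1.76 RPKM in labelled knockout and 1.58 RPKM in control. Mme, the peptidase neprilysin, for which adrenomedullin is a known substrate, was at 2.05 and 1.77 RPKM in the same libraries.

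Receptors, partners and cyclic AMP signalling were read from a list of 44 genes, 43 of them in the tables, which includes Calcrl and the Ramp genes. In stroma 22 were kept, 1 was at least 2-fold higher, Ramp3 itself, and none was at least 2-fold lower. Their median log2 difference was 0.06, close to the 0.07 of all kept genes. The largest difference after Ramp3 was that of Cxcr7, the older symbol of Ackr3, a decoy receptor that binds adrenomedullin and the chemokine Cxcl12. It stood at 2.59 RPKM in labelled knockout and 1.47 RPKM in control, 1.76-fold higher (limits 1.48 and 2.10). Pth1r, the parathyroid hormone receptor and a receptor known to pair with a Ramp protein in human cells, was at 6.67 RPKM in labelled knockout and 5.14 RPKM in control. Adcy7, an adenylyl cyclase, was at 1.60 and 2.20 RPKM in the same order. Gnas, which encodes the stimulatory G protein, was at 35.8 RPKM in labelled knockout and 34.7 RPKM in control, the highest level of the list. Crcp, a component that couples the Calcrl receptor to signalling, was at 1.01 RPKM in labelled knockout and 1.11 RPKM in control. Calcr, the calcitonin receptor, was listed at 0 in every library, and so was Crhr1, a receptor for corticotropin-releasing hormone. Below the minimum, Adcy1, an adenylyl cyclase named after its values were seen, was at 0.913 RPKM in labelled knockout and 0.269 RPKM in control, a ratio of 3.40 with limits of 2.82 and 4.10.

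**Figure D4:**
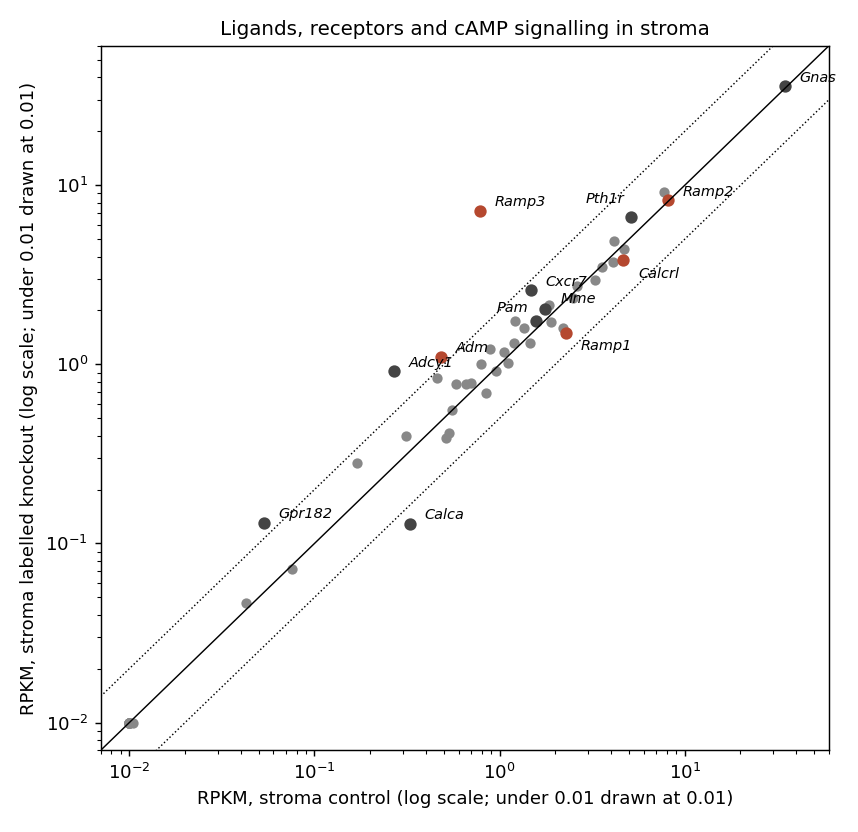
RPKM in stroma labelled knockout (vertical) against stroma control (horizontal), both on log scales, for the genes of the ligand and peptide handling list and the receptor and signalling list; members are in red, the solid line marks equal levels and the dotted lines 2-fold. Ramp3, at 7.23 and 0.781 RPKM, lies farthest above the lines, and most other genes above 1 RPKM lie between them.

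Markers of the cell types a stroma capture could hold were set beside the members. Since libraries are bulk samples, more cells of a type and more RNA per cell cannot be told apart. Vascular endothelial markers, among them Pecam1 and Cdh5, numbered 17, of which 16 were kept and none was at least 2-fold apart. Their sum was 66.0 RPKM in stroma labelled knockout and 69.6 RPKM in stroma control, and none was at 0. Calcrl per RPKM of that sum was 0.0577 in labelled knockout and 0.0670 in control, and Ramp2 0.125 and 0.116. Ramp3 per RPKM of that sum was 0.109 in labelled knockout and 0.0112 in control. Pericyte markers numbered 7, all kept and none at least 2-fold apart, with sums of 41.3 RPKM in labelled knockout and 42.3 RPKM in control.

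Lymphatic markers were below 1 RPKM in both stroma libraries, and 5 of the 6 listed were in the tables. Their sum was 1.09 RPKM in stroma labelled knockout, with none at 0, and 0.621 RPKM in stroma control, with 1 at 0. Mmrn1, which encodes multimerin of lymphatic endothelium, was at 0.229 RPKM in labelled knockout and 0.0096 RPKM in control, about 61 and 2 reads. Pdpn, the membrane glycoprotein podoplanin, was at 0.240 and 0.0295 RPKM, and Lyve1, a hyaluronan receptor, at 0.177 and 0.0714 RPKM, in the same order. Prox1, the defining transcription factor of lymphatic endothelium, was at 0.0289 RPKM in labelled knockout and listed at 0 in control. Flt4, a receptor for lymphatic growth factors, ran the other way, at 0.415 and 0.510 RPKM. Gpr182, a receptor of endothelium from the signalling list, was at 0.131 RPKM in labelled knockout and 0.0532 RPKM in control. Gpr182 and Prox1 were not particular to stroma. In luminal epithelium Gpr182 was at 0.220 RPKM in labelled knockout and 0.353 RPKM in control. Prox1 there was at 0.0412 RPKM in labelled knockout, about 29 reads, and listed at 0 in control. Lyve1, Pdpn and Mmrn1 were listed at 0 in both luminal epithelium libraries. The part of these markers in the Ramp3 and Adm values was not tested.

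Among general stromal markers all 13 were kept and 3 were at least 2-fold higher, and the sum was 586 RPKM in stroma labelled knockout and 410 RPKM in stroma control. The median log2 difference of the 13 was 0.29, with 9 above 0. The 3 were the mesenchymal transcription factor gene Tcf21, at 3.78 and 0.843 RPKM, and the collagen genes Col1a1 and Col1a2, at 83.7 and 32.9 RPKM and at 102 and 45.9 RPKM, labelled knockout before control. Lower in labelled knockout were Pdgfra, a growth factor receptor gene, at 13.3 and 18.0 RPKM, and Vim, which encodes vimentin, at 62.4 and 77.0 RPKM, in the same order, and Dcn, the decorin gene, stood at 43.6 and 42.7 RPKM. Of the 8 leukocyte markers kept, 2 were at least 2-fold lower and none was at least 2-fold higher, with sums of 52.0 RPKM in labelled knockout and 115 RPKM in control over 11 markers, none at 0. These 2 were Cd74, a chaperone of antigen-presenting cells, at 19.8 and 52.1 RPKM, and the lysozyme gene Lyz2, at 21.5 and 45.1 RPKM. Of smooth muscle markers 4 of 9 were kept and none was at least 2-fold apart with 1 RPKM added. The 9 summed to 21.1 RPKM in labelled knockout and 18.3 RPKM in control. The median log2 difference of the 4 kept was 0.30, with 3 above 0. Without the added RPKM, Tagln was 2.40-fold higher in labelled knockout, at 2.47 and 1.03 RPKM. Acta2 stood at 8.21 and 5.58 RPKM, whereas Des was lower, at 7.11 and 8.78 RPKM. Whether the stromal, leukocyte and smooth muscle differences had a part in the member values was not tested.

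**Figure D5:**
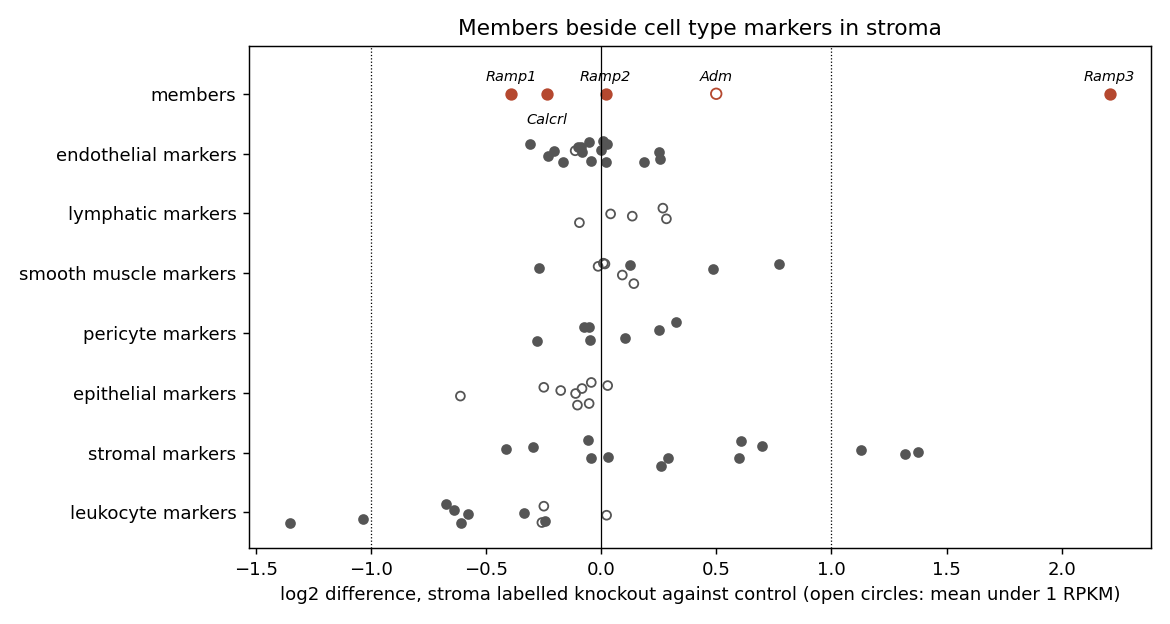
Log2 difference, stroma labelled knockout against stroma control, of the members and of 7 lists of cell type markers; each circle is a gene, open where its mean was under 1 RPKM, and vertical positions within a list are arbitrary. Endothelial and pericyte markers lie within the dotted 2-fold lines, 3 stromal markers lie above and 2 leukocyte markers below, and Ramp3 lies at 2.21.

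Genes known to share a setting with adrenomedullin were read from 3 further lists. Among genes induced by low oxygen, a setting in which Adm is known to rise, 16 of 23 in the tables were kept in stroma and none was at least 2-fold apart, with a median log2 difference of 0.07. Vegfa, the vascular growth factor, was at 3.62 RPKM in stroma labelled knockout and 2.05 RPKM in stroma control, a ratio of 1.77 with limits of 1.47 and 2.12. The collagen prolyl hydroxylase gene P4ha2 was at 3.24 RPKM in labelled knockout and 1.88 RPKM in control, and P4ha1, of the same family, at 2.76 and 1.84 RPKM. Of the 16 kept, 12 lay above 0. Among those lower in labelled knockout were Bnip3, at 1.47 and 1.96 RPKM (ratio 0.751, limits 0.591 and 0.963), and Ddit4, at 1.41 and 1.88 RPKM (ratio 0.752, limits 0.586 and 0.965). Of vascular growth signals and receptors 11 of 20 were kept and none was at least 2-fold apart, with a median of -0.09. Besides Vegfa, the largest differences there were those of Ednrb, an endothelin receptor, at 2.38 RPKM in labelled knockout and 3.83 RPKM in control, and Nrp1, a coreceptor for vascular growth factors, at 5.41 and 4.08 RPKM. Steroid receptor and steroid-responsive genes of uterus had a median of 0.28 over 10 kept of 17, with none at least 2-fold apart. Pgr, the progesterone receptor gene, was at 7.62 RPKM in labelled knockout and 3.88 RPKM in control, a ratio of 1.96. Fkbp4, its cochaperone, was at 10.8 and 6.49 RPKM, and Gli1, a transcription factor of the hedgehog pathway, at 8.24 and 4.99 RPKM.

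The second comparison set luminal epithelium labelled knockout against luminal epithelium control. No member reached a mean of 1 RPKM, so 0 of 5 were kept, and 7.02% of 7736 kept genes were at least 2-fold apart in either direction, 5.03% higher and 1.99% lower. Calcrl was at 0.0523 RPKM in labelled knockout, about 22 reads, and 0.258 RPKM in control, about 8 reads. Calcrl thus stood at 0.203 of the control level (counting limits 0.0828 and 0.501). Ramp1 was at 0.0604 RPKM in labelled knockout and 0.135 RPKM in control, about 6 reads and 1 read. Adm was at 0.0282 RPKM in labelled knockout and 0.133 RPKM in control, about 3 reads and 1 read, and the limits of the ratio, 0.0169 and 11.1, show that no direction was detectable at this depth. Ramp2 was listed at 0 in both. Ramp3 was at 0.155 RPKM in labelled knockout, about 15 reads, and listed at 0 in control, where 3 reads would stand for 0.457 RPKM, so a level like that of the labelled knockout would not have been detectable. Stromal markers were also lower in the luminal epithelium library labelled knockout, with sums of 9.20 RPKM there and 16.6 RPKM in control over 13 genes, of which 1, Tcf21, was at 0 in both. Leukocyte markers summed to 2.76 RPKM in labelled knockout and 16.4 RPKM in control, with 0 and 2 of 11 at 0. Smooth muscle markers, 9 in all, summed to 0.727 RPKM in labelled knockout and 5.04 RPKM in control, with 1 and 2 at 0. Not every marker was lower. Nr2f2 of the stromal list was at 3.36 and 2.44 RPKM, and Cd68 of the leukocyte list at 0.742 and 0.565 RPKM. Pericyte markers, 7 in all, summed to 0.572 RPKM in labelled knockout and 0.481 RPKM in control. The 16 endothelial markers other than Sox17 summed to 1.02 and 1.03 RPKM. The part of these markers in the Calcrl value was not tested.

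Although the receptor genes were scarce in luminal epithelium, genes that act on the peptide were abundant. Mme was at 48.6 RPKM in luminal epithelium labelled knockout and 100 RPKM in luminal epithelium control, 0.485 of the control level (counting limits 0.471 and 0.499). It was the 1 gene of 4 kept from the ligand and peptide handling list that was at least 2-fold apart, at a log2 difference of -1.03. The authors' deposited table gave it a q-value of 1.0 after rounding. Rescaling without the 50 most abundant genes moved the median of all kept genes by -0.18 in this pair. Pam was at 16.0 RPKM in labelled knockout and 12.5 RPKM in control, a ratio of 1.28 with limits of 1.15 and 1.44. Ece1, an endothelin-converting enzyme, was at 3.30 RPKM in labelled knockout and 3.71 RPKM in control. Of the receptor and signalling list 11 of 43 were kept and none was at least 2-fold apart, with a median of 0.12, against 0.10 over all kept genes. Gnas was at 21.0 RPKM in labelled knockout and 18.4 RPKM in control. Slc9a3r1, a scaffold protein known to bind the Ramp3 product in human cells, was at 6.45 and 4.85 RPKM. Below the minimum, genes of this list, named after their values were seen, lay in both directions. Prkar2b was at 1.75 RPKM in labelled knockout and 0.239 RPKM in control, a ratio of 7.32 with limits of 3.01 and 21.8. Crem was at 1.55 and 0.352 RPKM and Pde3a at 0.609 and 0.0396 RPKM, each resting on about 3 control reads. Pde3b was lower in labelled knockout, at 0.169 and 0.831 RPKM. Vegfa was at 6.69 RPKM in labelled knockout and 3.41 RPKM in control. P4ha2 was the 1 of 17 kept hypoxia-inducible genes at least 2-fold apart, at 18.8 and 4.63 RPKM. Steroid-responsive genes included Pgr, at 11.4 and 3.87 RPKM, and Ltf, the secreted lactotransferrin, at 41.8 and 11.1 RPKM, again labelled knockout before control, and these 2 were the only ones of 9 kept that were at least 2-fold apart.

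The compartments were then set side by side, luminal epithelium against stroma within a genotype. The tables may have been normalized separately, and rescaling by the upper quartile shifted the middle log2 difference of kept genes by -0.34 in the labelled knockouts and -0.36 in the controls. Of the members 3 were kept in the labelled knockouts, Calcrl, Ramp2 and Ramp3, and all 3 were at least 2-fold lower in luminal epithelium, where 10.7% of 8350 kept genes were. In the controls 3 were kept, Calcrl, Ramp1 and Ramp2, and all 3 were at least 2-fold lower in luminal epithelium, against 12.1% of 8030 kept genes. A member could be kept only through its stroma level, so these counts say nothing beyond the levels. Calcrl was 0.0523 RPKM in luminal epithelium against 3.81 RPKM in stroma of the labelled knockouts, and 0.258 against 4.66 RPKM in the controls. Ramp3 was at 0.155 RPKM in luminal epithelium against 7.23 RPKM in stroma of the labelled knockouts, 46.5-fold lower with counting limits of 27.1 and 81.3. Ramp1 was 16.9-fold lower in luminal epithelium control than in stroma control, with limits of 2.80 and 635 that rest on about 1 read. Mme and Pam lay the other way. Mme was 23.7-fold higher in luminal epithelium than in stroma in the labelled knockouts and 56.7-fold higher in the controls, and Pam 9.12-fold and 7.91-fold. Without Sox17, which was at 41.6 and 44.8 RPKM in luminal epithelium labelled knockout and control, the other 16 endothelial markers summed to 1.02 and 1.03 RPKM there, against 65.1 and 68.3 RPKM in stroma. In the labelled knockouts all 13 stromal markers, all 5 pericyte markers kept and all 4 smooth muscle markers kept were also at least 2-fold lower in luminal epithelium. In the controls all 12 stromal and all 4 pericyte markers kept were, and 3 of 4 smooth muscle markers kept. Tagln was the exception, at 1.09 RPKM in luminal epithelium control and 1.03 RPKM in stroma control. As with the members, most of these markers could be kept only through their stroma level.

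Likeness to each member was measured as the distance between profiles of log2 RPKM with 1 RPKM added, over the 4 libraries, with the mean of each gene removed, among 9168 named genes reaching 1 RPKM. Nearest to Ramp3 was Cxcl14, which encodes a chemokine, at a distance of 0.35. It stood at 0.447 and 0.414 RPKM in luminal epithelium labelled knockout and control, and at 8.84 and 1.92 RPKM in stroma labelled knockout and control. P2ry14, a receptor for UDP-glucose, followed at 0.42, with 5.44 RPKM in stroma labelled knockout and 0.968 RPKM in stroma control, and the collagen gene Col6a6 at 0.58, with 4.25 and 0.876 RPKM. Nearest to Ramp2 were Cd93, a surface glycoprotein of endothelium, at 0.12, the homeobox gene Hoxa11 at 0.13 and Rhoj, a small GTPase of endothelium, at 0.14. Nearest to Calcrl were Pcolce, an enhancer of procollagen processing, at 0.11, Gas1 at 0.12 and C1ra, a complement protease, at 0.14. Adm lay nearest to Gemin6 at 0.09, Lipg, endothelial lipase, at 0.10 and Timm10 at 0.11, and Ramp1 to Cd36, a fatty acid carrier, at 0.08, Fut10 at 0.08 and Adcy7 at 0.10. These distances rest on 4 libraries. Ramp3 was chosen for its stroma difference, so the size of its distances is not a finding.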

How the data were processed

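RNA of 4 libraries was measured after laser capture, PicoPure extraction and stranded total RNA preparation with ribosomal depletion, per the labels' protocols. The authors deposited RPKM for each library, per the file headers, in 1 table per compartment. The tables also hold the authors' own log2 fold changes, p-values and q-values of knockout against control, and their test statistic, a score, per the file headers. Fold changes are written there as a very large number where a library is at 0, and those were not used. Build mm9 is named in the submitters' processing notes, which also list Cufflinks 2.0.2, TopHat2 2.0.5, TopHat and CASAVA 1.8.2. Their settings and the use of strand in counting are not given in the sources used here.

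From the deposited RPKM, log2 differences were taken after adding 1 RPKM as a pseudocount, so changes of low genes are understated. Genes with a pair mean of at least 1 RPKM were kept and counted when at least 2-fold apart. No test was possible with 1 library per group. Named genes exclude small RNA and unnamed models; the symbol pattern for these was extended after seeing the data, because 1 short RNA model stood above Ramp3 in stroma. Reads were estimated from low RPKM values times the transcript length less 200 bp, which pile up at whole multiples of 1 read. Lengths came from GENCODE vM21, another build, used for length and strand only, and covered 98.8% of the kept genes in stroma and 98.9% in luminal epithelium. Between 60.6% and 62.7% of low values lay within 0.2 of a whole number, after fitting to the same values, where evenly spread values would give 40%, so depths are approximate. Limits are 95% Clopper-Pearson limits on estimated reads, cover counting error only, and amplified reads are not independent molecules. Starts in the tables were raised by 1.

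The members and the 15 lists were chosen with earlier results of these data known. Genes named were the members, genes of the 2 pathway lists reaching 1 RPKM, up to 3 kept genes of the largest difference in other lists, and the 3 nearest profiles. Others are said to have been named after their values were seen, except Msx1, Msx2, Rpl26, Gm11978 and cell type markers, which check a label or a value, and genes listed at 0. Calca, Gpr182, Adcy1 and Greb1 lay under 1 RPKM and were also named after their values were seen. So were Ltf, Bnip3 and Ddit4 in stroma and Mxi1 in luminal epithelium. Alternatives changed the pseudocount, scaling, minimum, gene models, fold and length. The steps were tested on simulated data. Computation used Python 3.11.15 with matplotlib 3.10.9, scipy 1.17.1, pandas 2.3.3 and numpy 2.4.6.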

Additional observations from a re-analysis of the deposited data

Results flagged for a closer look

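Adm was the member whose difference had opposite signs in the compartments. Its log2 difference, labelled knockout against control, was -0.14 in luminal epithelium and 0.50 in stroma. With 1 library per group this contrast was not tested, and the luminal epithelium value rests on about 3 reads in labelled knockout and 1 read in control.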

How the results depend on the processing

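No paired analysis was possible because each group held 1 library, so no replicate block could be fitted and no replicate left out. The count of members at least 2-fold apart in stroma, 1, became 0 with a minimum mean of 5 RPKM, which Ramp3 does not reach, and stayed 1 under the other 7 alternatives. Its log2 difference was 3.06 with 0.1 RPKM added and 2.59 with 0.5 RPKM added. Between compartments the count of 3 became 5 without a minimum of expression in the labelled knockouts, and 0 in both genotypes with a minimum of 5 RPKM. Over all genes, 235 at least 2-fold apart in stroma became 70 without small RNA and unnamed models and 434 at 1.5-fold. With the pattern of such models as first written, an alternative added after seeing the data, 71 genes were past the fold and Ramp3 ranked 2 of 7039 named genes instead of 1 of 7038. In luminal epithelium 543 became 919 with 0.1 RPKM added, 266 with a minimum of 5 RPKM and 1311 at 1.5-fold. The upper quartile and the sum without the 50 most abundant genes changed no count of members. Ramp3 and Calcrl in luminal epithelium and Adm in both compartments lie at a level where the pseudocount sets the log2 difference, and the depth of luminal epithelium control, about 6360000 reads, limits every member there.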
